A study of Rattus norvegicus with 8 samples.

Results

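The collagen genes of rat myelinating cultures were examined on 8 Affymetrix Rat Gene 1.0 ST arrays, with FGF9 compared with control within pairs of same-numbered cultures. Members were chosen by name: every feature annotated with a single symbol made of Col, a number, the letter a and a number, with the feature of the highest mean kept for each gene. The rule found 25 of 14506 genes, on 27 features (Col6a4 had 3). They were 10 fibrillar collagens (Col1a1, Col1a2, Col2a1, Col3a1, Col5a1, Col5a2, Col5a3, Col11a1, Col11a2 and Col27a1), 3 basement membrane collagens (Col4a1, Col4a3 and Col4a4) and 12 others (Col6a4, Col7a1, Col8a1, Col9a1, Col9a2, Col10a1, Col12a1, Col13a1, Col14a1, Col16a1, Col17a1 and Col23a1). A further 19 collagen genes of the RefSeq table, among them Col4a2 and Col6a1, were not analysed here, since no single-symbol feature names them.

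The cultures were grown from spinal cords of embryonic Sprague-Dawley rats whose meninges had been removed, per the labels' protocols. There were 4 groups of 2 arrays: cultures given human FGF9 at 100 ng/ml and collected at 24 h, untreated control cultures at 24 h, cultures given the same FGF9 and collected at 10 days, and untreated control cultures at 10 days. The labels name no genetic change, and they do not say whether the 2 cultures of a group came from separate litters, so p-values cover only the spread seen among these arrays. At each time the FGF9 and the control array of 1 replicate number share an array name prefix and are called a pair here. Pair 1 at 24 h has the prefix CL1, pair 2 at 24 h and pair 1 at 10 days have CL2, and pair 2 at 10 days has AA1; its meaning is not given in the labels.

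FGF9 is a secreted growth factor that signals through FGF receptor tyrosine kinases. Collagens are chains that wind into helices. Outside the cell fibrillar collagens assemble into fibrils and type IV chains into the networks of basement membranes. The others form fibril-associated molecules, beaded filaments, anchoring fibrils, short-chain networks or transmembrane proteins. In the central nervous system fibrillar collagen comes mostly from fibroblasts of the meninges and of blood vessels, while neurons and most glia make little of it. Newly made chains are hydroxylated, glycosylated and folded in the endoplasmic reticulum and crosslinked by lysyl oxidases after secretion.

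One label names neurosphere-derived astrocytes as the source, while the titles and the cell type label name myelinating cultures; the arrays held markers of several cell types. The mean log2 value of 10 neuron markers was 9.93 to 11.74 over the 8 arrays, that of 9 astrocyte markers 10.83 to 12.44 and that of 8 oligodendrocyte markers 9.22 to 11.57, and no marker of these 3 lists lay under the array's 25th percentile of genes. The 2 AA1 arrays stood apart. Their values over all 29214 features correlated with each other at 0.968 and with the other 6 arrays at 0.897 to 0.939. Those 6 correlated among themselves at 0.962 to 0.989. Collagen results at 10 days are therefore given with the values of each pair; pair 1 is the value without AA1. Levels are the authors' log2 values, so 1 unit is a factor of 2. They are compared within a gene, set against the percentiles of genes on an array, or averaged over a list. Differences are FGF9 minus control in log2 units, ± standard error of a limma fit with the pair as a fixed block, and adjusted p-values are those of limma after Benjamini-Hochberg adjustment over all 14506 genes, with a threshold of 0.05.

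The upstream sequences of 3 members are shown because the results below turn on these genes: Col5a3, a fibrillar chain that passed the test at 10 days; Col4a1, the main type IV chain, whose window overlaps that of its neighbour Col4a2; and Col1a2, one of the chains that differed most between pairs. Each window runs from 250 bases before to 50 after the annotated gene start, from RefSeq on build GRCr8, at chr8:27625899-27626198 (minus strand), chr16:84885347-84885646 (plus strand) and chr4:33518307-33518606 (plus strand). Capitals mark CCAAT (the box bound by NF-Y), TATAAA (the TATA box) and GGGCGG (the GC box bound by Sp1-type factors), read on both strands.
Col5a3: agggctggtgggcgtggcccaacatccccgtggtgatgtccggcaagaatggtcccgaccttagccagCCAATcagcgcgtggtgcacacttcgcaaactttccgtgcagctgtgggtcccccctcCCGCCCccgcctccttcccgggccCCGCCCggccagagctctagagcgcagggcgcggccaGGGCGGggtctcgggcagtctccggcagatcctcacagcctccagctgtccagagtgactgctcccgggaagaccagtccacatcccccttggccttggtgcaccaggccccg
Col4a1: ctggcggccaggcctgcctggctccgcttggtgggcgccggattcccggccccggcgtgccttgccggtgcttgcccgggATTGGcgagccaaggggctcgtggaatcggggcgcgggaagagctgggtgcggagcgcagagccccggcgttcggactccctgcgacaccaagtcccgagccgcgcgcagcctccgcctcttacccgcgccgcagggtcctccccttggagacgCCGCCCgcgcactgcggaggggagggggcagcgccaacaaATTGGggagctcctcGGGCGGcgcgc
Col1a2: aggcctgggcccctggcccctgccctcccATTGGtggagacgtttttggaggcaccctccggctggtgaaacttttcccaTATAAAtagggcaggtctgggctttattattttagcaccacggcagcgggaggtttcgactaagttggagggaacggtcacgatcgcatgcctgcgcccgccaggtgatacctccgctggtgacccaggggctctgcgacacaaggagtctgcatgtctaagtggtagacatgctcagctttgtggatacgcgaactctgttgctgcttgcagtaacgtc
Windows were matched for 20 of the 25 members; Col1a1, Col2a1, Col3a1, Col12a1 and Col14a1 had none in the table. The Col5a3 window held 1 CCAAT, at -182 from the start, and 3 GC boxes. The Col4a1 window held 2 CCAAT and 2 GC boxes and shared 176 bases with the window of Col4a2, which is read from the other strand; Col4a3 and Col4a4 shared 88 bases in the same way. The Col1a2 window held 1 CCAAT at -221 and 1 TATAAA at -170. Positions count from the annotated gene start, and whether transcription starts there was not tested. CCAAT was found in 7 of the 20 windows and in 37.5% of 33469 windows of that length, TATAAA in 4 and in 14.2%, GGGCGG in 11 and in 33.1%, and TGANTCA, an AP-1 type element, in 0 and in 7.33%. No matches overlapped in the windows shown, and a match describes the window alone.

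Fibrillar type I and type III collagen transcripts differed far more between the pairs at 10 days than between FGF9 and control. Col1a1, the major chain of type I collagen, had log2 values of 11.38 and 11.36 in FGF9 cultures at 24 h, against 11.84 and 11.49 in control cultures. At 10 days Col1a1 had 10.96 and 7.27 in FGF9 cultures, against 11.63 and 7.38 in control cultures. The low value on each side was that of pair 2, so the groups overlapped at 10 days and did not at 24 h.

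Col1a2, the second chain of type I collagen, had 11.19 and 11.43 in FGF9 cultures at 24 h, against 11.73 and 11.99 in control cultures, and all FGF9 values lay below the control values. At 10 days Col1a2 had 11.39 and 7.15 in FGF9 cultures, against 12.25 and 7.22 in control cultures. Col3a1, the chain of type III collagen of soft tissue, had 10.05 and 11.04 in FGF9 cultures at 24 h, against 10.56 and 11.07 in control cultures. At 10 days Col3a1 had 10.63 and 5.69 in FGF9 cultures, against 11.29 and 5.36 in control cultures. In both pairs at 24 h and in pair 1 at 10 days the FGF9 array had the lower Col3a1 value; in the AA1 pair it had the higher.

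**Figure D1:**
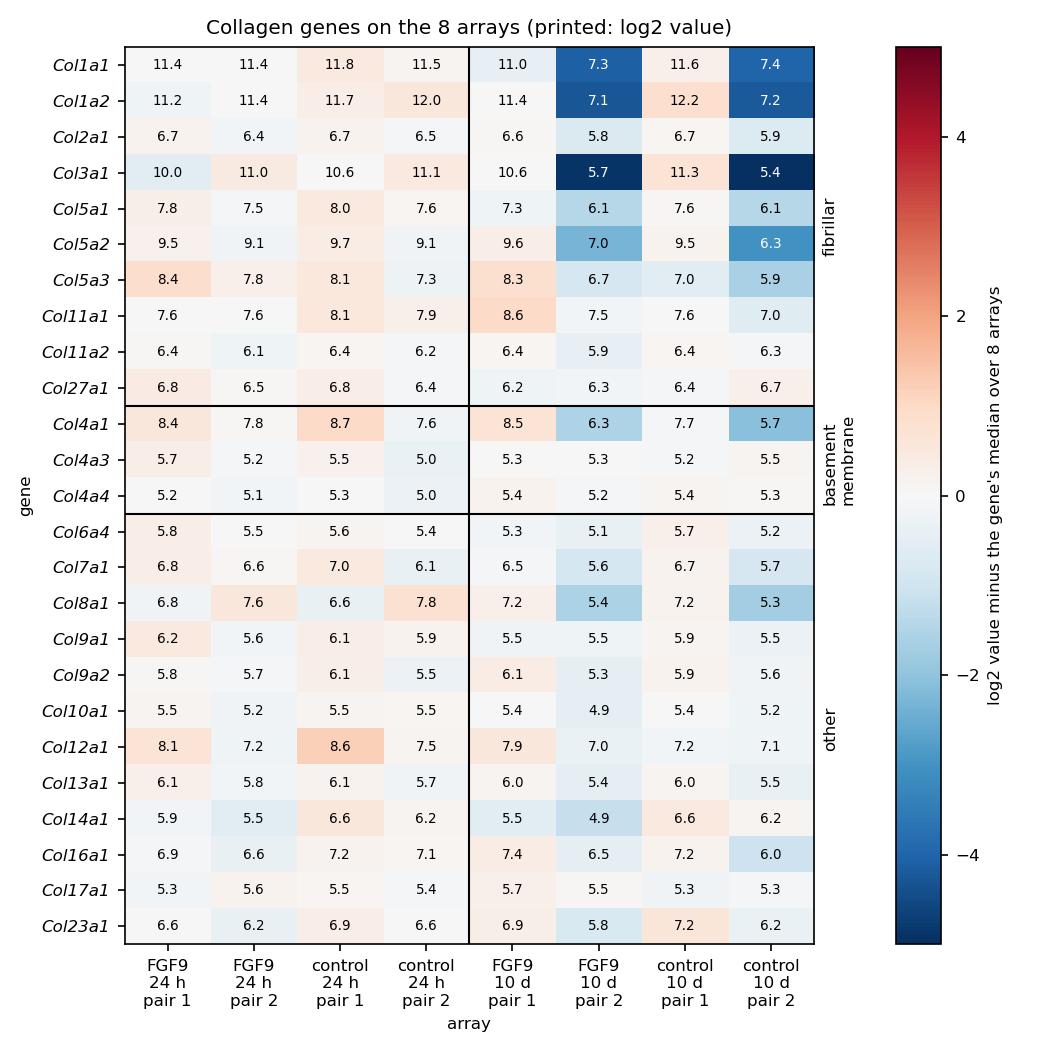
Log2 values of the 25 collagen genes (rows, by class) on the 8 arrays (columns); numbers are log2 values, and colour is the value minus that gene's median over the 8 arrays. The darkest blue cells are Col1a1, Col1a2 and Col3a1 on the 2 AA1 arrays (10 days, pair 2), with and without FGF9.

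The difference between the 10-day pairs was measured as the CL2 array minus the AA1 array, once within FGF9 and once within control. For Col3a1 it was 4.94 log2 units in FGF9 and 5.93 in control cultures, the rank of its mean being 5 among 14506 genes. The AA1 value of Col3a1 in control culture, 5.36, lay under its array's 25th percentile of genes (5.61). That in FGF9 culture, 5.69, lay just above its own (5.57). Both sizes and the rank of Col3a1 are therefore approximate. The CL2 minus AA1 difference was 4.25 in FGF9 and 5.03 in control cultures for Col1a2 (rank 10), and 3.69 in FGF9 and 4.25 in control cultures for Col1a1 (rank 17). Col5a2, a chain of type V collagen that is built into type I fibrils, differed by 2.64 in FGF9 and 3.20 in control cultures, and Col4a1 by 2.23 in FGF9 and 2.05 in control cultures. Of the 25 members 8 exceeded 1 log2 unit in both, 6 of them fibrillar, against 5.16% of all genes.

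Most of the fibroblast and meningeal markers moved with these genes. The mean log2 value of the 13 measured of 14 such markers was 7.92 and 8.78 in FGF9 cultures at 24 h, against 8.12 and 9.18 in control cultures. At 10 days the mean was 8.95 and 7.25 in FGF9 cultures, against 9.55 and 6.78 in control cultures, low in the AA1 pair on both sides. Of these 13 markers 9 were over 1 log2 unit higher in CL2 than in AA1 in both FGF9 and control cultures. Aldh1a2, a retinoic acid synthase of meninges, differed by 4.83 in FGF9 and 5.78 in control cultures. Dcn, the fibril-binding proteoglycan decorin, differed by 3.02 in FGF9 and 2.82 in control cultures. Pdgfrb and Twist1 were higher in CL2 in both, but not by over 1 log2 unit in each. Thy1 went the other way, at -1.10 in FGF9 and -0.83 in control cultures. Igf2 differed in sign, at -0.15 in FGF9 and 3.97 in control cultures. The markers named here were picked after their values were seen. Among oligodendrocyte markers 5 of 8 were over 1 log2 unit higher in CL2 in both, and among genes of collagen breakdown 5 of 7. This count was 2 of 8 for choroid plexus and ependymal markers, 1 of 10 for mural cell markers and 0 of 10 for endothelial markers. Over all genes it was 748 of 14506 (5.16%). Among 10 neuron markers 4 were over 1 log2 unit lower in CL2 than in AA1 in both, beside 1000 of 14506 genes. The neuron list medians were -0.92 in FGF9 and -0.90 in control cultures. Under the 25th percentile of genes lay 1 of the 13 markers on the AA1 FGF9 array and 5 on the AA1 control array, and 0 on each of the other 6. Their part in the difference was not tested, and in bulk RNA fewer cells of a type and less RNA per cell cannot be told apart.

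**Figure D2:**
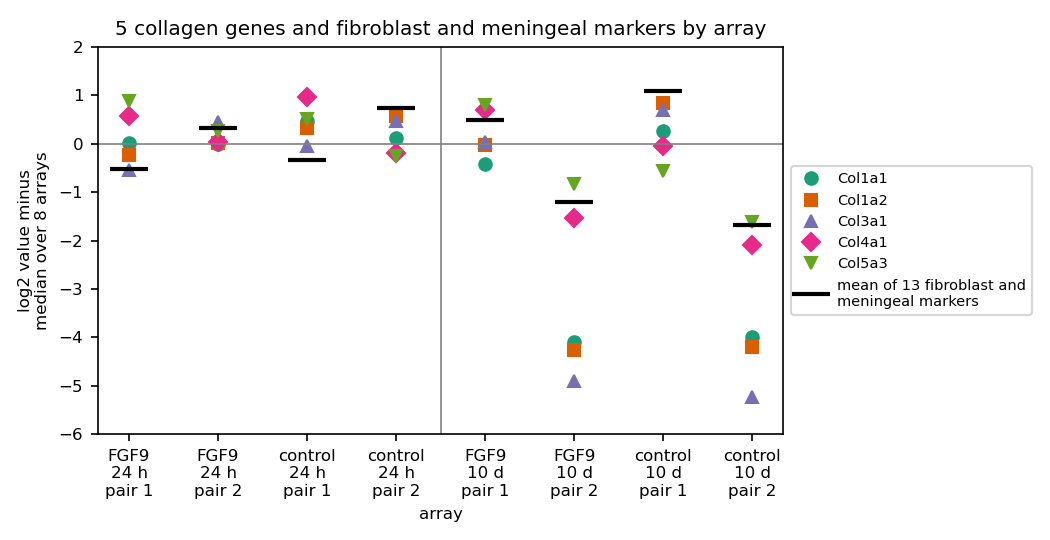
Log2 value minus the median over the 8 arrays (vertical axis) for Col1a1, Col1a2, Col3a1, Col4a1 and Col5a3 (symbols) and for the mean of 13 fibroblast and meningeal markers (bars), by array. The genes and the mean of the markers are lowest on the 2 arrays of pair 2 at 10 days. Within that pair the FGF9 values of Col4a1 and Col5a3 lie above the control values.

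At 24 h of FGF9, 0 of the 25 collagen genes passed the test, as did 0.0% of all genes. At an unadjusted p under 0.05 there were 5 of 25 members and 1800 of 14506 genes (12.4%) with the pair as a block, and 0 members and 280 genes without it. Of the 25 members 12 were lower and 5 higher with FGF9 in both pairs, against 32.9% and 31.8% of all genes, while 8 had opposite signs. In all, 68.0% of members kept 1 sign, against 64.6% of all genes. FGF9 and control values did not overlap for 5 of 25, against 32.1% of all genes. The median difference was -0.07 over the 25, and it was -0.13 for the fibrillar, 0.06 for the basement membrane and -0.04 for the other collagens, beside a median of 0.00 over all genes.

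Among members named at 24 h by smallest p with 1 sign in both pairs, Col14a1, a fibril-associated collagen, had 5.93 and 5.48 in FGF9 cultures, against 6.61 and 6.17 in control cultures. These groups did not overlap, and the difference was -0.69 ± 0.14 (adjusted p = 0.184). Col1a2 differed by -0.55 ± 0.21 (adjusted p = 0.37), by the same -0.55 in each pair. Col5a3, the third chain of type V collagen, had 8.44 and 7.80 in FGF9 cultures, against 8.05 and 7.29 in control cultures. It was higher with FGF9 in both pairs, by 0.45 ± 0.17 (adjusted p = 0.388), while the groups overlapped.

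The remaining members of that selection gave smaller or less precise differences at 24 h. Col11a1, a chain of the thin collagen XI fibrils of cartilage, had 7.59 and 7.57 in FGF9 cultures, against 8.13 and 7.88 in control cultures, without overlap. Col23a1, a transmembrane collagen, had 6.58 and 6.20 in FGF9 cultures, against 6.90 and 6.56 in control cultures, and both pairs were lower with FGF9. Col16a1, a fibril-associated collagen, had 6.94 and 6.64 in FGF9 cultures, against 7.19 and 7.11 in control cultures. Differences were -0.42 ± 0.17 for Col11a1, -0.34 ± 0.13 for Col23a1 and -0.36 ± 0.15 for Col16a1, none past the threshold.

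Col12a1, a fibril-associated collagen of dense connective tissue, had 8.06 and 7.16 in FGF9 cultures at 24 h, against 8.57 and 7.52 in control cultures. The pairs lay further apart than FGF9 and control within a pair, so the groups overlapped. Col5a1, the first chain of type V collagen, had 7.82 and 7.50 in FGF9 cultures, against 8.01 and 7.62 in control cultures. Col4a3, a type IV chain of specialised basement membranes, had 5.67 and 5.25 in FGF9 cultures, against 5.53 and 4.99 in control cultures, and Col10a1, the short-chain collagen of growth plate cartilage, had 5.54 and 5.21 in FGF9 cultures, against 5.55 and 5.51 in control cultures. Both lay under the 25th percentile of genes on all 8 arrays.

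Col4a1 had 8.37 and 7.83 in FGF9 cultures at 24 h, against 8.75 and 7.61 in control cultures, so it was lower with FGF9 in pair 1 and higher in pair 2. The other 12 members differed by -0.10 to 0.14 at 24 h, with adjusted p-values of 0.79 or more.

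At 10 days of FGF9, 2 of 25 collagen genes passed with the pair as a block, Col5a3 upward and Col14a1 downward, which is 8.0% of the members beside 6.43% of all genes (3.12% higher and 3.31% lower). The share of collagen genes called was thus near that of the whole array. Both calls rest on the block: 0 of the 25 members and 0.0% of all genes passed without it. With the array name prefix as a random block 0 of 25 members and 1.04% of all genes passed. In that fit the CL2 arrays of both times share a block. At an unadjusted p under 0.05 there were 7 members and 3475 genes (24.0%) with the block, and 1 member and 816 genes without it.

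Col14a1 had 5.51 and 4.88 in FGF9 cultures at 10 days, against 6.55 and 6.16 in control cultures. Both FGF9 values lay below both control values, and the pairs gave -1.04 and -1.29. The gene fell, with a log2 difference of -1.16 ± 0.14 (adjusted p = 0.019 with the block, 0.631 without it and 0.054 with the prefix as a random block). FGF9 and control values did not overlap for 3 of 25 members at 10 days, against 26.2% of all genes. Both 10-day FGF9 values of Col14a1 lay under the 25th percentile of genes on their arrays (5.70 and 5.57), and the AA1 value lay near the 5th percentile (4.85 to 4.98 over the arrays), so no fold is given. The 24 h FGF9 value of pair 2, 5.48, was also under its array's 25th percentile of 5.64.

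Col5a3 had 8.34 and 6.71 in FGF9 cultures at 10 days, against 6.99 and 5.92 in control cultures. The FGF9 value was higher in each pair, by 1.35 and 0.79, but the FGF9 value of pair 2 lay below the control value of pair 1, so the groups overlapped. Within pairs the gene rose 2.09-fold, a log2 difference of 1.07 ± 0.17 (adjusted p = 0.0291 with the block, 1.0 without it and 0.213 with the prefix as a random block). With any 1 of the 4 arrays from 24 h left out, which leaves 1 residual degree of freedom, the adjusted p of Col5a3 was 0.0516.

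Col11a1 and Col4a1, next by unadjusted p at 10 days, were higher with FGF9 in both pairs and missed the threshold. Col11a1 had 8.55 and 7.47 in FGF9 cultures, against 7.63 and 7.02 in control cultures, a difference of 0.68 ± 0.17 (adjusted p = 0.0702). Col4a1 had 8.49 and 6.26 in FGF9 cultures, against 7.74 and 5.69 in control cultures, with 0.75 in pair 1, 0.57 in pair 2 and 0.66 ± 0.18 overall (adjusted p = 0.0935). The groups overlapped in both genes, and for Col4a1 the pairs lay further apart than FGF9 and control within a pair.

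Col5a2 had 9.61 and 6.97 in FGF9 cultures at 10 days, against 9.46 and 6.26 in control cultures, and Col16a1 had 7.40 and 6.53 in FGF9 cultures, against 7.19 and 5.98 in control cultures. Both were higher with FGF9 in each pair, Col5a2 by 0.43 ± 0.17 (adjusted p = 0.208) and Col16a1 by 0.38 ± 0.15 (adjusted p = 0.207). Col17a1, a transmembrane collagen of epithelial anchoring, had 5.67 and 5.48 in FGF9 cultures, against 5.26 and 5.33 in control cultures. Its groups did not overlap, but all 8 of its values lay under the 25th percentile of genes.

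Type I collagen was lower with FGF9 in both pairs at 10 days without passing. Col1a1 differed by -0.67 in pair 1 and -0.11 in pair 2, and by -0.39 ± 0.18 overall (adjusted p = 0.273). Col1a2 differed by -0.86 and -0.07, and by -0.46 ± 0.21 overall (adjusted p = 0.243). The larger value of each gene came from the pair in which the gene was high. Col3a1 differed by -0.66 in pair 1 and by 0.34 in pair 2 (-0.16 ± 0.26, adjusted p = 0.776). The pair 2 difference lies between low values, 5.69 in FGF9 and 5.36 in control culture, the control one under its array's 25th percentile of genes (5.61).

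Col23a1 had 6.86 and 5.80 in FGF9 cultures at 10 days, against 7.16 and 6.24 in control cultures, lower in each pair, by -0.37 ± 0.13 in all (adjusted p = 0.163). Col27a1, a fibrillar collagen of cartilage, had 6.21 and 6.31 in FGF9 cultures, against 6.37 and 6.68 in control cultures, without overlap (-0.27 ± 0.14). Col6a4, a beaded filament chain, had 5.31 and 5.06 in FGF9 cultures, against 5.69 and 5.17 in control cultures. None of these 3 passed, and the other 12 members differed by -0.17 to 0.29 with adjusted p-values of 0.483 or more.

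**Figure D3:**
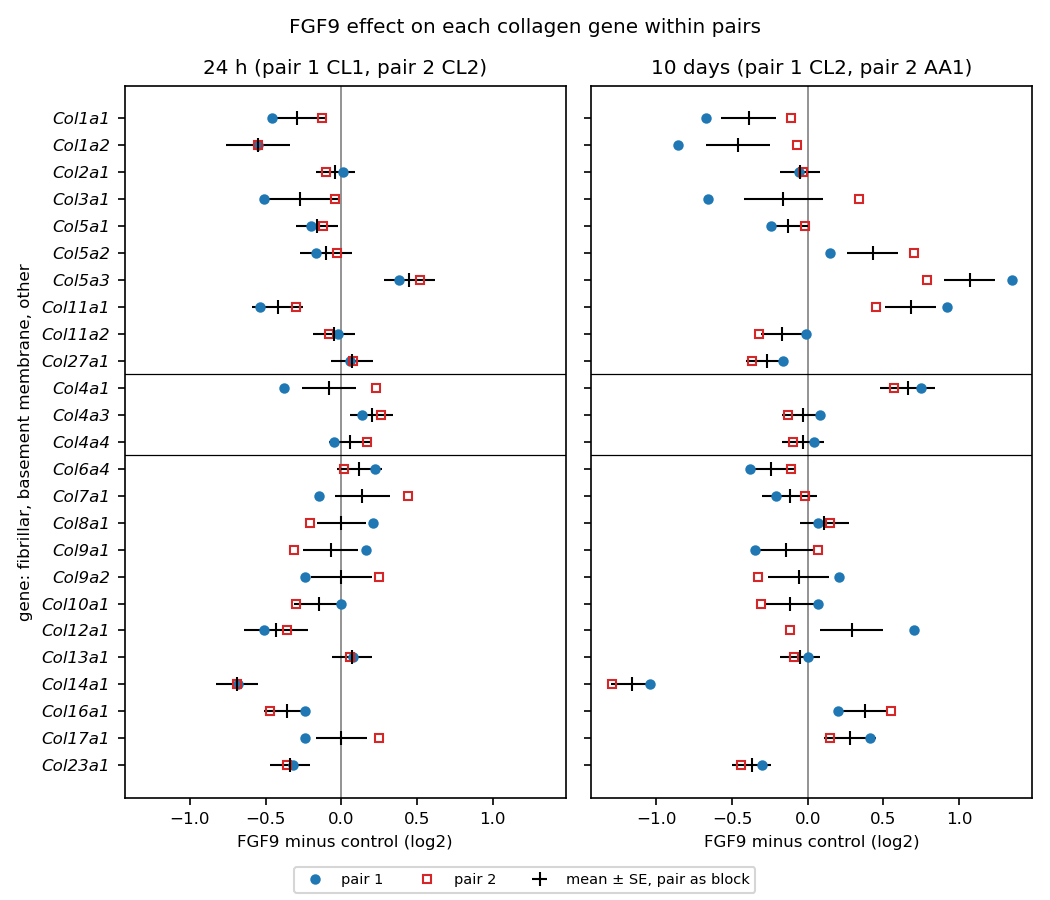
FGF9 minus control in log2 units (horizontal axis) for each collagen gene (rows, by class) at 24 h (left panel) and 10 days (right panel); filled circles are pair 1, open squares pair 2, and ticks with bars the mean ± standard error of the fit with the pair as a block. Col14a1 lies left of 0 and Col5a3 right of 0 in all 4 pairs, and Col3a1 has its 10-day pairs on opposite sides of 0.

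By class, the median difference at 10 days was -0.14 for the 10 fibrillar, -0.03 for the 3 basement membrane and -0.09 for the 12 other collagens, and -0.06 over all 25, beside 0.02 over all genes. In pairs 1 and 2 the medians were -0.11 and -0.03 for the fibrillar, 0.08 and -0.10 for the basement membrane and 0.03 and -0.10 for the other collagens, so the last 2 classes differed in sign between pairs. Among fibrillar collagens 3 were higher and 6 lower with FGF9 in both pairs, and 1 had opposite signs; among the others the counts were 3, 5 and 4. Over the 25 members 11 were lower and 7 higher in both pairs, against 30.0% and 33.2% of all genes, so that 72.0% kept 1 sign, against 63.2% of all genes. The basement membrane class rests on few genes, since Col4a3 and Col4a4 lay under the 25th percentile of genes (5.57 to 5.70) on all 8 arrays, as did Col10a1 and Col17a1. In all, 14 members lay above that percentile on every array and 11 fell under it on at least 1.

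The change of the FGF9 effect between 24 h and 10 days, tested as an interaction in the same fit, passed for 0 of 25 members and 0.0483% of all genes. Col11a1 was lower with FGF9 in both pairs at 24 h and higher in both at 10 days, a change of 1.10 ± 0.24 (adjusted p = 0.237). For Col14a1 the change was -0.48 ± 0.20 (adjusted p = 0.39) and for Col5a3 0.62 ± 0.25 (adjusted p = 0.378).

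In control cultures, 10 days against 24 h passed for 0 of 25 members and 0.0% of all genes in the limma fit of group means, where arrays of the AA1 prefix enter only at 10 days. The difference was -2.49 ± 2.22 for Col3a1, -2.13 ± 1.88 for Col1a2 and -2.16 ± 1.61 for Col1a1. Within the CL2 prefix, which holds 1 control array of each time, 10 days minus 24 h was 0.21 for Col3a1, 0.26 for Col1a2 and 0.14 for Col1a1 in control cultures, with no replicate. The same difference between the CL2 arrays of FGF9 cultures was -0.41 for Col3a1, -0.04 for Col1a2 and -0.40 for Col1a1.

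Several genes that hydroxylate and fold collagen were higher with FGF9 at 10 days. Of 30 listed genes of collagen synthesis and crosslinking 27 were measured, and 8 rose and 0 fell with the pair as a block, 29.6% of the list beside 3.12% of all genes higher. With the prefix as a random block 4 rose (0.875% of all genes higher), and without the block 0 passed. None of the 5 lysyl oxidases, Lox and Loxl1 to Loxl4, passed; Lox was the nearest at 2.13 ± 0.60 (adjusted p = 0.0964), with 0.71 in pair 1 and 3.54 in pair 2. The median difference of the list was 0.79, with 0.38 in pair 1 and 1.01 in pair 2, against -0.06 for the collagens. At 24 h 0 of the 27 passed and the median was 0.08. No random-list or set test was made, so these shares describe the list.

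P3h4, a non-catalytic partner of the collagen prolyl 3-hydroxylase family that binds lysyl hydroxylase, had 8.56 and 9.14 in FGF9 cultures at 10 days, against 7.07 and 7.19 in control cultures. Its groups did not overlap, and it rose by 1.72 ± 0.20 log2 units (adjusted p = 0.0178; 0.0225 with the random block). Plod3, a lysyl hydroxylase and glycosyltransferase, had 9.80 and 9.15 in FGF9 cultures, against 8.89 and 8.14 in control cultures, and rose by 0.96 ± 0.13 (adjusted p = 0.022; 0.0717 with the random block). Fkbp10, an endoplasmic reticulum prolyl isomerase for collagen, had 10.52 and 10.08 in FGF9 cultures, against 9.48 and 8.69 in control cultures, and rose by 1.21 ± 0.17 (adjusted p = 0.022; 0.0471 with the random block).

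P3h2, the prolyl 3-hydroxylase that acts on type IV collagen, had 9.07 and 8.89 in FGF9 cultures at 10 days, against 7.58 and 7.17 in control cultures. It rose by 1.60 ± 0.23 (adjusted p = 0.0231; 0.0363 with the random block). The other 4 that passed, named after their values were seen, were P3h1 (1.08 in pair 1 and 1.29 in pair 2), Crtap (1.13 and 2.46), P4ha1 (0.69 and 0.89) and Plod2 (0.76 and 1.83), which hydroxylate prolines or lysines or, in the case of Crtap, hold the prolyl 3-hydroxylase complex together. With the random block the adjusted p was 0.119 for P3h1, 0.0497 for Crtap, 0.282 for P4ha1 and 0.175 for Plod2. FGF9 and control values overlapped for P3h1, P4ha1 and Plod2. All 8 genes that passed were higher with FGF9 in both pairs. Of the 27 measured, 20 were higher and 3 lower in both pairs, beside 33.2% and 30.0% of all genes. P3h3 was among the lower ones, by -0.60 in pair 1 and -0.23 in pair 2.

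With the block, leaving out 1 array at 10 days takes its partner out of the comparison as well. The list median was then 0.38 without either AA1 array, the value of pair 1. It was 1.01 without either CL2 array at 10 days, the value of pair 2. No count is given for fits that leave 1 pair at 10 days. A limma fit without the AA1 pair and without the block gave the same median of 0.38.

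**Figure D4:**
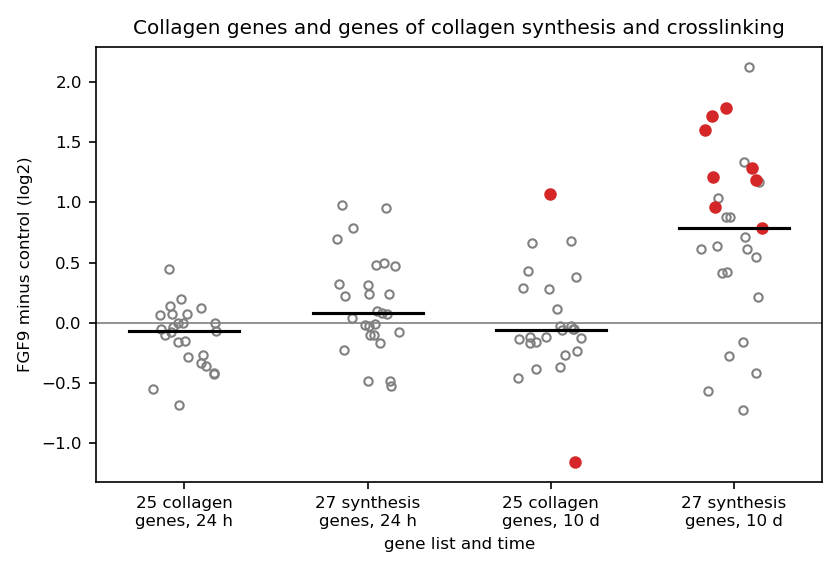
FGF9 minus control in log2 units (vertical axis) for 25 collagen genes and 27 genes of collagen synthesis and crosslinking at 24 h and 10 days; each point is 1 gene, filled red where the adjusted p with the pair as a block was under 0.05, and bars are medians. At 10 days the synthesis genes have a median of 0.79 and 8 filled points, all above 0, while the collagens have a median of -0.06 and 1 filled point on each side of 0.

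Other genes of the collagen matrix gave few calls at 10 days. Among 11 measured non-collagen basement membrane genes 1 rose, Lama5, the laminin alpha 5 chain, with 8.54 and 8.53 in FGF9 cultures against 7.35 and 7.34 in control cultures (1.19 ± 0.16, adjusted p = 0.022; 0.651 without the block and 0.054 with the random block), and 0 fell; the median was 0.05. Of 9 collagen receptors 0 passed, with a median of 0.22; Itgb1, the integrin beta 1 chain shared by the collagen-binding integrins, was the nearest at 0.95 ± 0.21 (adjusted p = 0.0547), with 0.55 in pair 1 and 1.34 in pair 2. Of 7 genes of collagen breakdown 0 passed, with a median of 0.05; Mmp2, a gelatinase, was higher by 0.18 in pair 1 and 1.97 in pair 2.

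Markers of cells known to make collagen gave calls in both directions at 10 days. Among the 13 fibroblast and meningeal markers 0 rose and 1 fell, Ogn, the small matrix proteoglycan osteoglycin, with 9.90 and 7.73 in FGF9 cultures against 11.83 and 9.80 in control cultures (-2.01 ± 0.16, adjusted p = 0.0124; 1.0 without the block and 0.0806 with the random block); the median of the list was -0.13, with -0.57 in pair 1 and 0.38 in pair 2. Among 10 mural cell markers, genes of pericytes and smooth muscle, 5 rose with the block, beside 3.12% of all genes, and the median was 0.86. With the prefix as a random block 3 rose, beside 0.875% of all genes, and 0 without the block. Of the 10 markers 9 were higher with FGF9 in both pairs, beside 33.2% of all genes, and Abcc9 had opposite signs. The median was 0.68 with the block and either AA1 array left out, which is pair 1 alone. Rgs5, a pericyte regulator of G-protein signalling, rose by 2.09 ± 0.15 (adjusted p = 0.0107) and Cspg4, the NG2 proteoglycan of pericytes and of oligodendrocyte precursors, by 1.70 ± 0.14 (adjusted p = 0.0143). The mean of the 10 mural markers was 8.04 and 7.96 in FGF9 cultures, against 7.21 and 7.00 in control cultures. Of 8 Schwann cell markers 2 rose with the block and 1 with the random block, beside 3.12% and 0.875% of all genes. Without a block 0 of them passed. Of 10 endothelial markers 0 passed. The medians were 0.16 for the Schwann cell and 0.01 for the endothelial markers.

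Among the other cell type lists at 10 days, with the block 8 of 10 neuron markers (median -0.93) and 3 of 8 choroid plexus and ependymal markers (median -0.83) fell, beside 3.31% of all genes, and 0 passed of 9 astrocyte (median 0.03), 8 oligodendrocyte (median 0.33) and 8 microglia and macrophage markers (median -0.03). Of the neuron and of the choroid plexus markers 0 passed with the random block and 0 without a block. The part of any of these cell types in the values of Col5a3, Col14a1 or the synthesis genes was not tested.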

How the data were processed

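Arrays of total RNA were made from 8 rat cultures. The authors deposited 1 log2 value per feature and array; that the scale is log2 was read from the range of the values, since no label states it. Partek 6.5 and GCRMA, which corrects background and summarizes probes, are named per the submitters' processing notes, without the order of steps. For arrays no depth can be given, and 2 arrays per group limit the precision. The platform annotation gave a single symbol to 15310 of 29214 features, several to 323 and none to 13581; keeping the feature with the highest mean for 527 genes left 14506 genes. All 25 collagens were found in RefSeq by Entrez identifier.

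The deposited log2 values were fitted without further normalization in R 4.3.3 with limma 3.58.1 (lmFit, eBayes) over all genes and 8 arrays. The pair entered as a fixed block, which leaves 2 residual degrees of freedom; control time was compared without it, with 4. The block was made the reported design because the comparison is defined within same-numbered replicates. It was chosen with earlier results of both designs known. The text therefore also says what passed without it or with the array name prefix as a random block. In that random fit the CL2 arrays of both times share a block. The members, classes and gene lists were also chosen with earlier results of these data known. As a check of the pairing, deviations of same-numbered arrays from their group means correlated over all genes at 0.757 at 24 h and 0.819 at 10 days, with only 2 pairs per time. The median residual SD was 0.145 with the block and 0.30 without.

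The fits were run on values simulated for 14506 genes from the block model itself. These values took the pair means and the residual spread of the block fit, with the same shift in both pairs. The block fit matches that model by construction, so the counts cannot show which design suits the real arrays. At 10 days the block fit called 91 of the 100 genes given a shift of 1 log2 unit, all 100 given 2, and 15 unchanged genes; without the block the calls were 0, 14 and 0. At 24 h the block fit called 92, 100 and 23.

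Genes given array by array were Col1a1, Col3a1, Col4a1, the 3 collagens with the highest mean, every collagen called, and for each time up to 12 with the smallest unadjusted p among those of 1 sign in both pairs; each other list gave up to 4 genes by unadjusted p at 10 days. Alternatives were no block, a random block, each array left out, quantile normalization, array medians subtracted, the lowest 25% of genes dropped, the mean of a gene's features, all features, and, added after seeing the data, the AA1 pair left out.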

Additional observations from a re-analysis of the deposited data

Results flagged for a closer look

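In 6 collagen genes both pairs lay on one side of 0 at 24 h and both on the other at 10 days, while the interaction in the limma fit did not pass for any of them. The share of all genes that turn in this way was not counted, so the 6 are not read as a trait of collagens. Of all genes, 64.6% kept 1 sign in both pairs at 24 h and 63.2% at 10 days. The FGF9 effect at 10 days minus that at 24 h was 1.10 ± 0.24 for Col11a1 (adjusted p = 0.237), 0.73 ± 0.22 for Col16a1 (adjusted p = 0.281) and 0.52 ± 0.25 for Col5a2 (adjusted p = 0.443). These 3 were lower with FGF9 at 24 h and higher at 10 days. It was -0.34 ± 0.19 for Col27a1 (adjusted p = 0.529), -0.36 ± 0.21 for Col6a4 (adjusted p = 0.525) and -0.11 ± 0.18 for Col13a1 (adjusted p = 0.848), which were higher at 24 h and lower at 10 days. The Col13a1 pairs at 10 days differed by no more than 0.09. Col6a4 lay under the 25th percentile of genes on 6 of the 8 arrays, and its other features did not turn in this way.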

How the results depend on the processing

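The count of 2 collagen genes passing at 10 days fell to 0 with no replicate block and to 0 with the prefix as a random block. With the AA1 pair left out, a fit of group means without the block, 1 array per group remains at 10 days. No count is given for that fit, in which Col14a1 was -1.04 and Col5a3 1.35. With the block, leaving out 1 array also takes its partner out of the comparison, so 1 pair remains at that time. Effect sizes are given for these fits. Without any 1 of the 24 h arrays, a fit with fewer degrees of freedom, Col5a3 at 10 days missed the threshold. At 10 days Col14a1 was between -1.29 and -1.04 with 1 array left out, and Col5a3 between 0.79 and 1.35. The ends of these ranges are the values of the single pairs. The counts of 0 at 24 h and of 0 for the interaction and for control time were 0 under every alternative run.

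Median differences of the classes moved as follows. The other collagens at 24 h (-0.04) had 0.01 with array medians subtracted and -0.25 to -0.04 with 1 array left out. At 10 days the fibrillar median (-0.14) had -0.14 to -0.03 with 1 array left out. The basement membrane median at 24 h (0.06) was -0.08 and at 10 days (-0.03) 0.66 with the lowest 25% of genes dropped, which leaves Col4a1 alone. With 1 array left out it was -0.05 to 0.23 at 24 h and -0.10 to 0.08 at 10 days, and 0.08 at 10 days with the AA1 pair left out. The other collagens at 10 days (-0.09) had 0.03 with the AA1 pair left out and -0.10 to 0.03 with 1 array left out.

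Among named genes the sign turned in 2 cases, both by which pair is read: with 1 array left out, Col3a1 at 10 days ran from -0.66 to 0.34 and Col4a1 at 24 h from -0.38 to 0.23. The cause of these shifts was not tested.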
